A study of Mus musculus with 2 samples.

Results

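Transcript levels of 38 genes of glucose transport, glycolysis, lactate handling and the citrate cycle were compared between the hypothalamus of Crtc1 knockout mice and that of wild-type mice. The genes were chosen by function, and a probe set was taken as one of theirs only where the platform annotation paired it with that gene alone. This gave 92 of the 45101 probe sets on the array and covered 36 of the 38 genes. Gpi1 and Eno1 had no probe set paired with them alone and are not analysed here. All animals were males of 12 weeks that had fasted for 18 h and then eaten for 6 h, so fasting and refeeding were shared by both genotypes. Equal amounts of RNA from 3 animals of a genotype were combined and measured on 1 Affymetrix mouse expression array, which leaves 1 pooled sample per genotype. Neither the strain nor the construction of the knockout is given in the sources used here. With 1 sample a group no test was possible, and nothing measures the spread between mice. The question named by the study's title is the role of Crtc1, a coactivator of the transcription factor CREB, in energy balance and fertility.

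The brain runs mainly on glucose, which enters through facilitative transporters of the Slc2a family and is phosphorylated by hexokinase. Glycolysis then splits it to pyruvate, which is either reduced to lactate, exported and shared between cells through the Slc16a transporters, or oxidised in the mitochondrial citrate cycle. Many of these steps are catalysed by paralogous enzymes that differ between cell types, and neurons of the hypothalamus use glucose both as fuel and as a signal of energy state.

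CREB binds the cAMP response element, CRE, whose full palindrome is TGACGTCA. A full CRE lay in the promoter window of 3 of the 35 genes that the RefSeq promoter table held (GRCm38.p6, 250 bases before to 50 after each start), which is 8.57%. The share was 2.03% of all 27025 genes in the table and 3.61% of the 9172 measured genes with a window. The 3 genes were Ldha, Mdh2 and Ogdh, shown here by the 250 bases before a start with the CRE in capitals, beside Idh2, the gene of this set with the lowest difference, whose window held none of the motifs searched.
Ldha, chr7:46845554-46845803, plus strand: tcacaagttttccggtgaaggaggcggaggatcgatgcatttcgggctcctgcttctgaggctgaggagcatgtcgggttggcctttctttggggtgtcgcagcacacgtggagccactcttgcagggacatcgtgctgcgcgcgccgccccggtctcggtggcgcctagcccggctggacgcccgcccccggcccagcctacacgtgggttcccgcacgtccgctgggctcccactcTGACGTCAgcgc
Mdh2, chr5:135778399-135778648, plus strand: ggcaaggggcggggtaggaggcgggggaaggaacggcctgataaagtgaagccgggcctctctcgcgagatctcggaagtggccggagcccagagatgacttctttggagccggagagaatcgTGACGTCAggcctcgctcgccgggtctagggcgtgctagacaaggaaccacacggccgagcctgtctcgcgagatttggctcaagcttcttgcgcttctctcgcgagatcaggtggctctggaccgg
Ogdh, chr11:6291347-6291596, plus strand: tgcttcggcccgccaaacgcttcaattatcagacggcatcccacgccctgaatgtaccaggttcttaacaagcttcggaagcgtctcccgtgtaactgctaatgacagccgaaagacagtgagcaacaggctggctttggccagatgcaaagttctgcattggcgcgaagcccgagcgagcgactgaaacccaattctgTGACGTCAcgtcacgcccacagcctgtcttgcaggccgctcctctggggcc
Idh2, chr7:80115351-80115600, minus strand: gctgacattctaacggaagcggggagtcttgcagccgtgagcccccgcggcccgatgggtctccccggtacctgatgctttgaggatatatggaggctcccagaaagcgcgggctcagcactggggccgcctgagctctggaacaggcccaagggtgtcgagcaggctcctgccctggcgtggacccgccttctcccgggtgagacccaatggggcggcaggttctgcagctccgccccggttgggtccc
The CRE began 12 bases before the start in Ldha, 127 in Mdh2 and 51 in the Ogdh window printed. Ogdh had 6 windows, some overlapping, and Ldha had 2.

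The genes whose windows held a full CRE differed little between the pools. Ldha, Mdh2 and Ogdh differed by 0.02, -0.06 and 0.12 on the log2 scale (knockout minus wild type), each less than the array error of 0.17, the SD between probe sets of 1 gene. Both strands were also searched for TGACG, the shorter core that lies inside the full CRE. It was in windows of 12 of the 35 genes (34.3%, against 23.0% of all genes and 36.1% of measured genes). The hypoxia response core ACGTG was in 17 (48.6%, against 21.8% and 30.0%). The E-box CACGTG, which contains the hypoxia core, was in 7 (20%, against 8.09% and 12.0%). Median log2 differences of the measured genes of this set that held the motif were 0.02 for the full CRE, -0.01 for TGACG, -0.02 for ACGTG and 0.02 for CACGTG. These are matches of letters and do not show binding.

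Signals of the set were close to equal in both pools. Of the 36 genes, 34 were measured, meaning that at least 1 probe set outside the manufacturer's controls had a mean log2 signal at or above the median of all probe sets, a signal of 52.3. Each gene takes its brightest such probe set. The difference was above 0 in 17 genes and below 0 in 17, with a median of 0.00 (all 11312 measured genes: 0.00). Its SD over the 34 genes was 0.14, against 0.25 over all measured genes. None of the 34 differed at least 1.5-fold, a size that 3.5% of measured genes reached, and 3 differed at least 1.2-fold, Aco1 higher and Pfkm and Idh2 lower in the knockout pool. At 1.2-fold, 21.9% of measured genes lay apart, 11.9% higher and 9.97% lower. With median centring of the arrays these shares were 8.73% higher and 14.6% lower, and the set still had 1 higher and 2 lower.

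The brightness of the set bears on that comparison. Of the 34 genes, 22 had a mean log2 signal of 10 or more, where 4.69% of all 1790 measured genes were at least 1.2-fold apart. Of the 22, only Pfkm was, which is 4.55%. The SD of the differences in that range was 0.09 for the 22 genes and 0.13 for all genes.

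**Figure D1:**
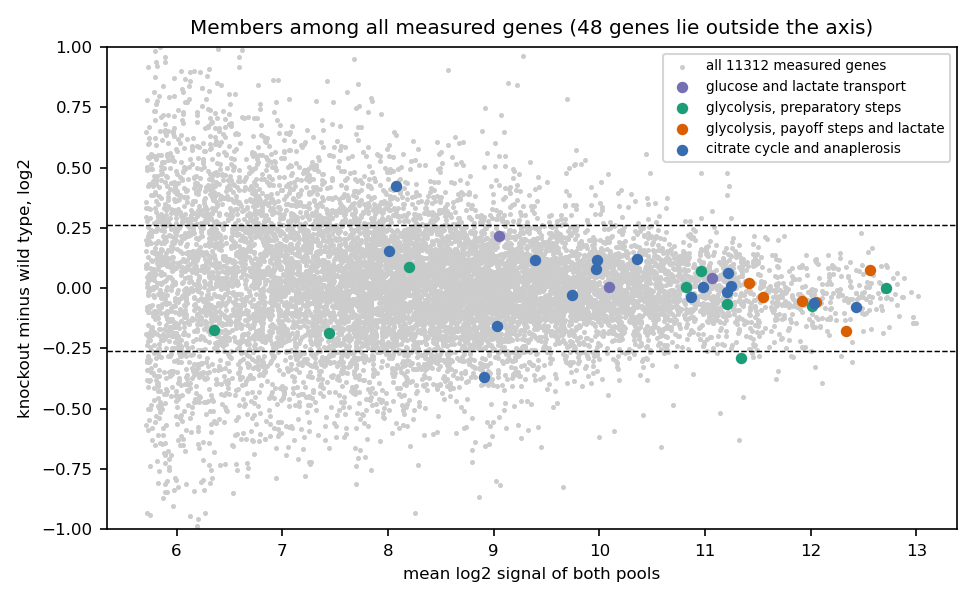
Log2 difference, knockout minus wild type, against the mean log2 signal of both pools for all 11312 measured genes (grey) and the 34 genes of the set (coloured by role); dashed lines mark 1.2-fold, and 48 genes lie outside the plotted range. The spread of all genes narrows with signal, and most coloured points sit at the bright end near 0, with Aco1 above and Pfkm and Idh2 below the dashed lines.

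The only repeat readings in these data are several probe sets of 1 gene. Their SD, called the array error here, was 0.17 on the log2 scale for the brightest genes, with a mean log2 signal of 10 or more averaged over their measured probe sets. It grew through 0.19, 0.24 and 0.27 in the next lower log2 units to 0.34 under 7. In 5 of the 34 genes (14.7%) the difference was larger than its array error, against 24.4% of all measured genes. They were Aco1 and Slc16a1, higher in the knockout pool, and Idh2, Pfkm and Pkm, lower. Among genes with a mean log2 signal of 10 or more by brightest probe set, the shares were 9.09% of the 22 genes and 16.6% of all 1790. Of the 72 measured probe sets of the set, 3 were at least 1.2-fold higher and 7 at least 1.2-fold lower, together 13.9%. Of all measured probe sets paired with 1 gene, 25.7% passed 1.2-fold, 13.9% higher and 11.8% lower. These shares of probe sets were not split by signal. In 8 of 21 genes with several measured probe sets all had one sign (38.1%, against 42.5% of all such genes).

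**Figure D2:**
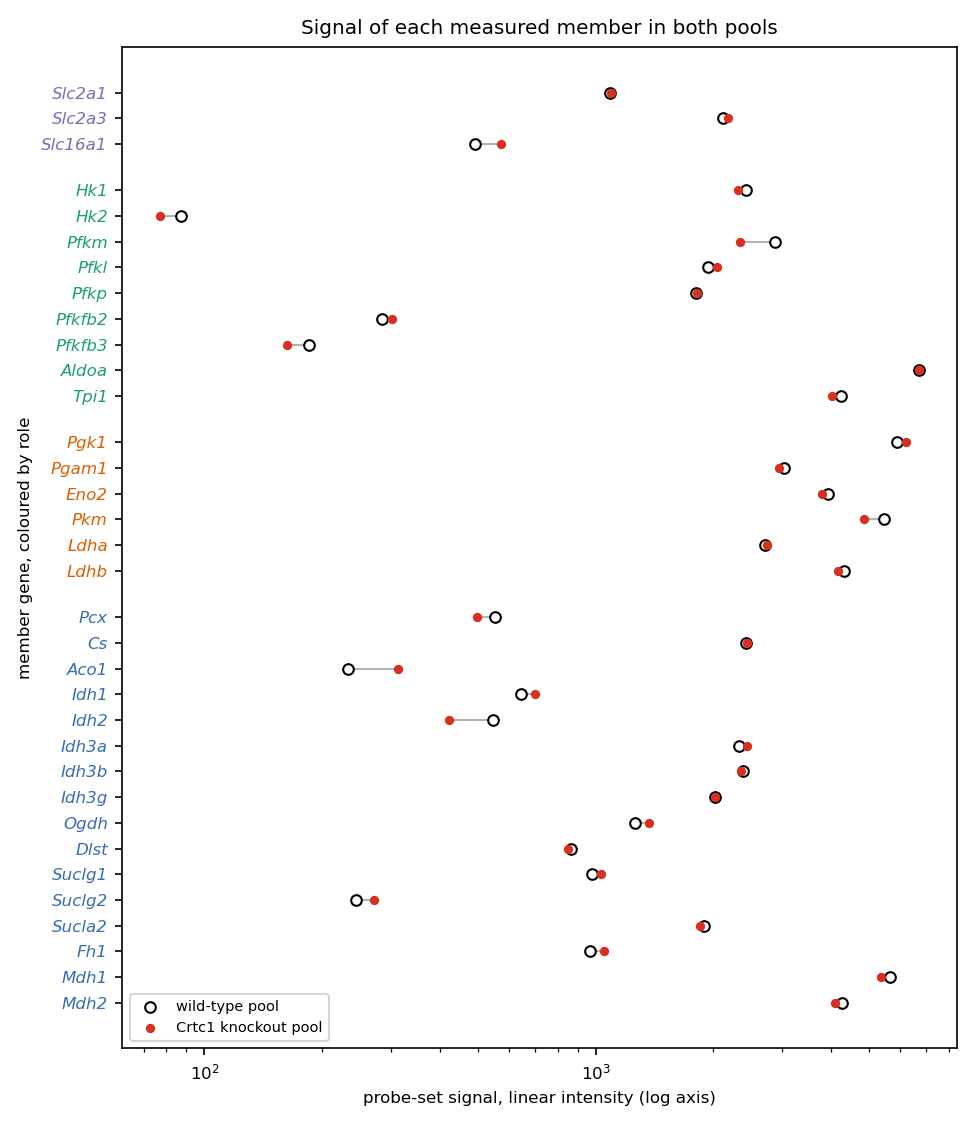
Linear signal of the brightest measured probe set of each of the 34 genes in the wild-type pool (open circles) and the Crtc1 knockout pool (red points), on a log axis, with gene names coloured by role. The widest gaps are those of Aco1, Idh2 and Pfkm, while the points of Slc2a1, Pfkp, Aldoa and Idh3g coincide; signals of different genes come from different probes and cannot be ranked.

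Glucose transporters were level between the pools by their brightest probe sets. Slc2a1 encodes GLUT1, the glucose carrier of brain capillaries and glia, and read 1093 in the knockout and 1089 in the wild type. Its other probe sets read 924 against 999 and 888 against 757, so they pointed opposite ways. Slc2a3 encodes GLUT3, the neuronal carrier. Its brightest probe set read 2176 in the knockout against 2117 in the wild type, a log2 difference of 0.04. The other 3 probe sets of Slc2a3 were all lower in the knockout pool, at 1405 against 1511, 223 against 254 and 146 against 205. The dimmest, 1427770_a_at, was 1.41-fold lower (log2 difference -0.50), and the mean over all 4 was -0.19. The direction for Slc2a3 therefore depended on the probe set used.

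Slc16a1 had the largest gap of the 3 measured transporters of the set by brightest probe set. It encodes MCT1, which carries lactate, pyruvate and ketone bodies across capillary and glial membranes. Its measured probe set read 572 in the knockout against 493 in the wild type, 1.16-fold higher (log2 0.22, array error 0.19). The difference was 0.16 with median centring, within that error, and 0.21 to 0.23 in the other settings. Other floors and filters and the choice among probe sets could not change it. Endothelial marker genes were higher in 4 of 7 measured members, with summed signals of 1744 against 1605, and oligodendrocyte markers in 4 of 7, with 17265 against 17470. Of all 11312 measured genes 5754 were higher. The part of endothelial cells and oligodendrocytes in the Slc16a1 value was not tested. In whole tissue, fewer cells of a type and less RNA per cell cannot be told apart. Slc16a7, which encodes MCT2, the neuronal lactate importer, read 55.8 against 44.7 by its single probe set, below the limit for a measured value, and enters only the count made without a filter.

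For the early steps of glycolysis 9 genes were measured, 6 lower and 3 higher in the knockout pool, beside 49.0% lower among all measured genes. The split was 5 lower and 4 higher with quantile normalization, loess or the mean of probe sets. It was 7 lower and 2 higher with median centring, where 61.1% of all measured genes were lower. The median log2 difference was -0.07. An error of 0.09 for this median was computed from the array errors of the 9 genes, taken as independent. The median was -0.02 with quantile normalization and -0.04 with loess. It was -0.12 with median centring, -0.14 with the mean of probe sets and -0.17 without probe sets of shared-sequence suffixes, all beyond 0.09. The lower genes include Aldoa, whose difference rounds to 0.00. Hexokinase traps glucose in the cell as its phosphate. Hk1, the main brain hexokinase gene, read 2313 against 2420 by its brightest probe set (-0.07) and 1266 against 1574 by the other (-0.31). Hk2, which encodes the insulin-responsive form, read 77.2 against 87.0 (-0.17, within its array error of 0.34). All these readings were lower in the knockout pool, and both genes stayed lower in every setting that measured them.

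Among the phosphofructokinase genes, which set the pace of glycolysis, Pfkm had the widest gap by brightest probe sets. Pfkm encodes the muscle-type subunit and read 2347 in the knockout against 2871 in the wild type by its single probe set. This was 1.22-fold lower (log2 -0.29), over the array error of 0.17. The difference ranged from -0.35 to -0.26 over the settings and was just under 1.2-fold with quantile normalization. Pfkl, the liver-type subunit gene, read 2042 against 1942.5 and 1304 against 1258.5, slightly higher in the knockout pool by both measured probe sets. Pfkp, the platelet-type subunit gene, read 1813 against 1807.5 by its brightest probe set, 107 against 110.3 by another and 453 against 594 by 1430634_a_at, which was 1.31-fold lower. Pfkm minus Pfkl was -0.36 and Pfkm minus Pfkp was -0.29, each over the combined array error of 0.25, while Pfkl minus Pfkp was 0.07 and within it. With the mean of each gene's probe sets Pfkm minus Pfkp was -0.15, within that error, and Pfkm minus Pfkl was -0.35.

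Pfkfb2 and Pfkfb3 make and break down the sugar bisphosphate that activates phosphofructokinase. Pfkfb3 was lower in the knockout pool by both probe sets, at 163 against 185 (-0.19) and 50.2 against 64.4 (-0.36). Pfkfb2 read 302 against 285 by its single measured probe set (0.09). Its 3 dimmer probe sets were below the limit and read 65.0 against 33.2, 56.3 against 39.0 and 43.4 against 25.9. All 3 were higher in the knockout pool, by 0.53 to 0.97 on the log2 scale. All 6 signals lay above the floors of 20.5 and 20.2, and these probe sets enter no gene value. The gap between Pfkfb2 and Pfkfb3 by their brightest probe sets, 0.28, was within the combined array error of 0.36.

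Aldoa and Tpi1, whose enzymes split and interconvert the sugar phosphates, were level. Aldoa, the main aldolase gene, read 6708 against 6715 by the brightest of 5 probe sets, which spanned -0.08 to 0.15 in log2 difference. Tpi1, the triose phosphate isomerase gene, spanned -0.07 to 0.12 over 3 probe sets.

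**Figure D3:**
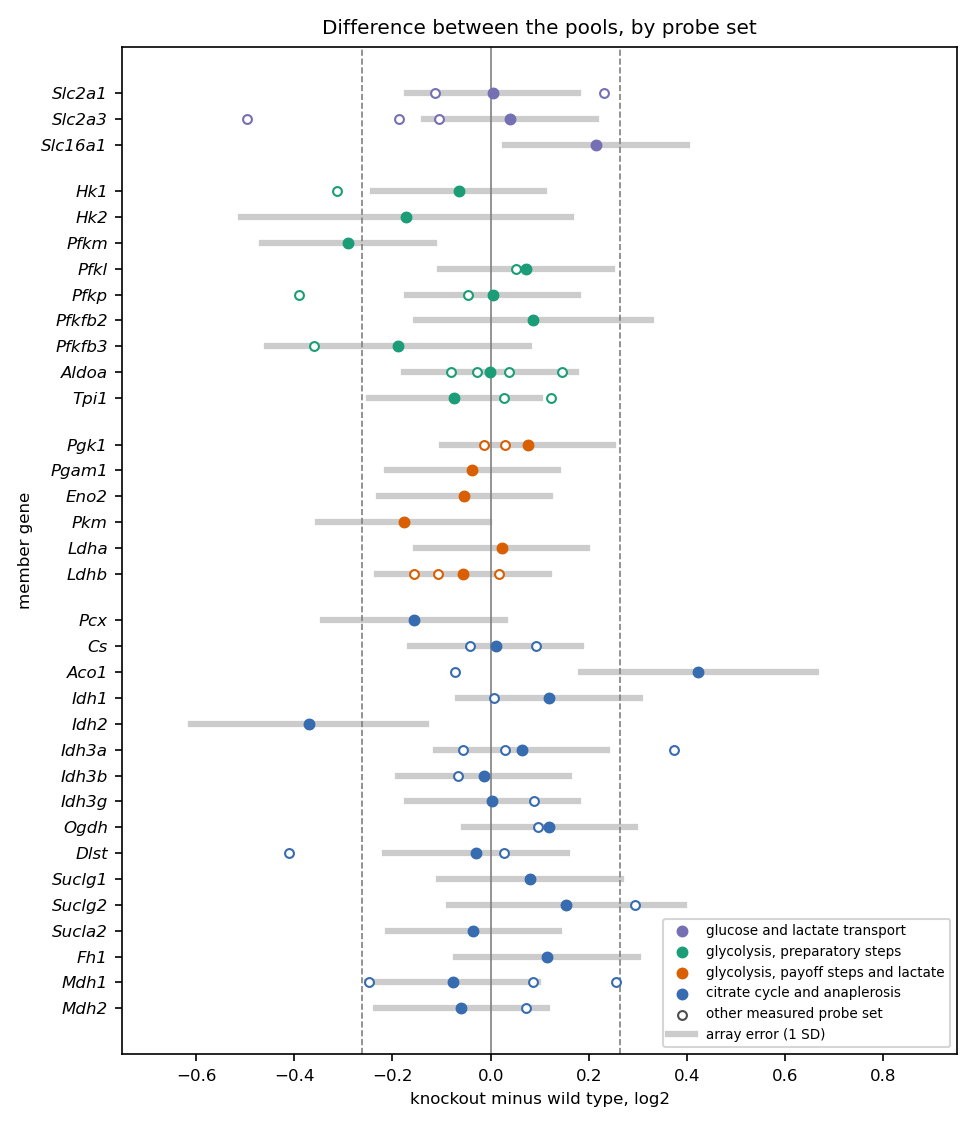
Log2 difference, knockout minus wild type, of every measured probe set of the 34 genes: filled points are the brightest probe set of a gene, open points its others, grey bars 1 array error around the filled point, dashed lines 1.2-fold. Open points of Slc2a3, Hk1, Pfkp, Dlst and Idh3a lie beyond the dashed lines while their filled points lie near 0, and the probe sets of Aco1 fall on opposite sides of 0.

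The later steps of glycolysis differed by at most 1.13-fold. Of 6 measured genes 4 were lower and 2 higher, with a median of -0.05. Pkm encodes the pyruvate kinase that ends glycolysis, and read 4843 in the knockout against 5477 in the wild type (log2 -0.18, array error 0.17, 1 probe set). It was the member of this group with the widest gap, and ranged from -0.24 to -0.15 over the settings. Pgk1, which encodes the first ATP-yielding enzyme of the pathway, read 6210.1 against 5893 (0.08). Pgam1, the phosphoglycerate mutase gene, read 2953 against 3030.5 (-0.04), and Eno2, the neuronal enolase gene, 3787 against 3930 (-0.05).

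The lactate dehydrogenase genes lay within 1.04-fold, each taken by its brightest probe set. Ldha, whose subunit favours lactate formation, read 2749 against 2707 (0.02). Ldhb, whose subunit favours lactate use, read 4156 against 4321 by its brightest probe set (-0.06), and its 4 probe sets spanned -0.16 to 0.02. The gap between the paralogs was 0.08, within the combined array error of 0.25. Neuron markers, a list that holds Eno2, had a median of -0.02 over 8 genes.

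Gapdh, the dehydrogenase of the middle of glycolysis, was covered by 3 of the manufacturer's control probe sets, which lie in the 5' part, the middle and the 3' part of the transcript. They read 7964 against 8104, 7821 against 8295 and 6872 against 7074, for log2 differences of -0.03, -0.08 and -0.04. The transcript thus read nearly the same in both pools along its length. Gapdh is not among the 34 measured genes because controls were kept out of gene values.

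Pcx showed a gap that depended on the position in the transcript. It encodes pyruvate carboxylase, an enzyme found mainly in astrocytes in the brain, which refills the citrate cycle with oxaloacetate. Its ordinary probe set read 497 in the knockout against 554 in the wild type (-0.16, array error 0.19). The control probe set in the 3' part read 290.1 against 313 (-0.11). Those of the middle read 128 against 177 (-0.46) and 149 against 215 (-0.53), and that of the 5' part 112 against 186 (-0.74). The log2 difference of the 5' part minus that of the 3' part was thus -0.63. The same measure was -0.24 for beta-actin, 0.61 for the transferrin receptor and 0.02 for Gapdh. Ratios of 3' to 5' signal, which rise when RNA is degraded, were 2.60 for Pcx in the knockout and 1.68 in the wild type, 1.47 and 1.25 for beta-actin, and 3.85 and 5.87 for the transferrin receptor. The 5' control of the transferrin receptor was dim, at 42.8 against 31.9, under the limit for a measured value and with an array error of 0.34. The part of RNA quality in the Pcx values was not tested. Astrocyte markers had a median of 0.05 over 8 genes, with summed signals of 14292 against 13935.

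**Figure D4:**
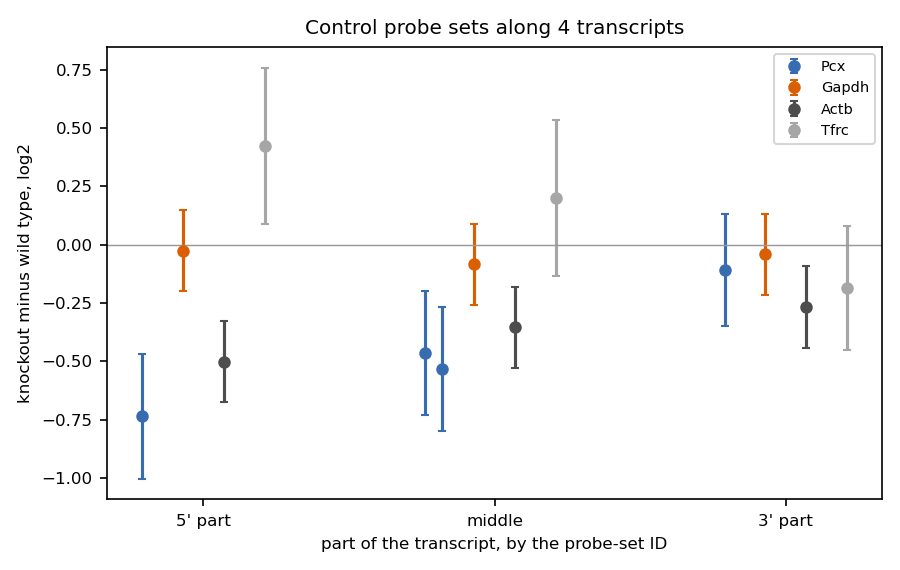
Log2 difference, knockout minus wild type, of the control probe sets in the 5' part, middle and 3' part of 4 transcripts; bars are 1 array error for that signal range, and points are shifted sideways for clarity. Pcx goes from -0.74 in the 5' part to -0.11 in the 3' part, Gapdh stays near 0, Actb (the beta-actin gene) goes the way of Pcx, and Tfrc (the transferrin receptor gene), dim in its 5' part and middle, goes the other way.

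In the citrate cycle group all 16 genes were measured, 9 higher and 7 lower, with a median of 0.01. Cs, which encodes citrate synthase at the entry of the cycle, read 2444 against 2427 by its brightest probe set, and its 3 probe sets spanned -0.04 to 0.09. Aco1, the cytosolic aconitase that doubles as an iron sensor, had no settled direction. Probe set 1456728_x_at read 312 against 232.5, 1.34-fold higher (0.42, array error 0.24), whereas 1423644_at read 241 against 253 (-0.07).

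Among the isocitrate dehydrogenase genes, Idh2 had the widest gap by brightest probe sets. Idh2, which encodes the mitochondrial enzyme that makes NADPH, read 422 in the knockout against 545 in the wild type. This was 1.29-fold lower (-0.37), over the array error of 0.24. Its other probe set was below the limit and read 25.7 against 43.9, also lower. Idh2 lay between -0.43 and -0.36 in every setting that measured it, which leaves out the one without probe sets of shared-sequence suffixes. Idh1, which encodes the cytosolic counterpart, read 700.0 against 645 (0.12) and 259 against 258 (0.01). Idh1 minus Idh2 was 0.49, over the combined array error of 0.30.

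The subunits of the NAD-dependent enzyme, which drives the cycle itself, were level. Idh3a, the catalytic subunit gene, read 2438 against 2333 (0.06), Idh3b 2358 against 2382 (-0.01) and Idh3g 2019.5 against 2015 (0.00). A dim probe set of Idh3a, 1447701_x_at, read 113 against 87.4 (0.37), while its other 3 spanned -0.06 to 0.06. The 3 gaps between these subunits were at most 0.08, within the combined array error of 0.25.

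Genes of the middle of the cycle lay within 1.11-fold, each taken by its brightest probe set. Ogdh, which encodes the first component of the oxoglutarate dehydrogenase complex, read 1369 against 1259.8 (0.12) and 68.9 against 64.4 (0.10). Dlst, its succinyltransferase, read 848 against 866 (-0.03), with a dim probe set at 62.4 against 82.9 (-0.41). Of the succinyl-CoA ligase genes, Suclg1, the shared subunit, read 1032.5 against 977 (0.08). Suclg2, the GTP-forming subunit, read 272 against 244 (0.15) and 142 against 115.5 (0.29). Sucla2, the ATP-forming subunit common in neurons, read 1847 against 1893 (-0.04). Suclg2 minus Sucla2 was 0.19, within the combined array error of 0.30. Fh1, which encodes fumarase, read 1051 against 970.5 (0.11).

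The malate dehydrogenases, which close the cycle and carry reducing power across the mitochondrial membrane, were level. Mdh1, the cytosolic form, read 5351 against 5647 by its brightest probe set (-0.08). Its other measured probe sets read 2002 against 1677 (0.26), 1639.6 against 1544 (0.09) and 72.3 against 85.8 (-0.25), so they surrounded 0. Mdh2, the mitochondrial form, read 4091 against 4265 (-0.06) and 3754 against 3569 (0.07). The gap between them was -0.02.

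Across the set, 13 pairs of paralogs or subunits were compared by their brightest probe sets, and 3 had gaps over the combined array error. These were Pfkm with Pfkl, Pfkm with Pfkp, and Idh1 with Idh2. Both pairs with Pfkm rest on its single probe set. Of all measured genes 24.4% differed by more than their own array error, and no such share was computed for pairs of other genes. The count therefore does not set these pairs apart. With the mean of probe sets the gap of Pfkm with Pfkp was within its error, and that of Pfkfb2 with Pfkfb3 (0.361) just over its error of 0.358. Pairs also differed in signal, as with Hk1 at 2313 and 2420 beside Hk2 at 77.2 and 87.0 in the knockout and wild-type pools. Probe sets respond differently to the same amount of RNA, so these signals give no ratio of transcripts.

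Other genes of glucose metabolism went both ways, and none of those measured on the next 4 lists reached 1.5-fold by its brightest probe set. Of 26 further transporters and isozymes 12 were measured, 8 lower and 4 higher, median -0.10. Slc2a12, a glucose transporter gene, was 1.30-fold higher (94.1 against 72.3), Eno3, the muscle enolase gene, 1.24-fold lower (91.9 against 114) and Pfkfb4 1.22-fold lower (158 against 193). The log2 difference of Eno3, -0.32, was within its array error of 0.34. Of 17 genes of glycogen handling and gluconeogenesis 12 were measured, 7 lower and 5 higher, median -0.08. Pygm, the muscle-type glycogen phosphorylase gene, was 1.21-fold lower (264 against 321). Pck2 differed by -0.20 and Pgm1 by -0.17, each within its array error. In the pentose phosphate pathway 6 of 8 were measured, with a median of 0.03. Taldo1, the transaldolase gene, differed by -0.19, Rpia by 0.14 and Pgls by 0.10, all within their array errors.

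Genes that link the cytosol and mitochondria went both ways. Of 13 genes of redox shuttles and malic enzymes 12 were measured, 7 lower and 5 higher, median -0.06. Slc25a10, the dicarboxylate carrier gene, read 226 against 187 by its brightest probe set, 1.21-fold higher, with another of opposite sign (-0.22). Slc25a1, the citrate carrier gene, differed by -0.24 and Me2, a malic enzyme gene, by 0.23, the latter within its array error of 0.27. Gpd1, the glycerol phosphate dehydrogenase gene, differed by -0.05 by its brightest probe set and by -0.65 by another, and Got2, the mitochondrial aspartate aminotransferase gene, by -0.21 and -0.48. Gpd2, of the same list, differed by 0.21 by its brightest probe set, and its 3 measured probe sets spanned 0.09 to 0.30. Gpd1, Got2 and Gpd2 were named after their values were seen.

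Regulators that sense glucose or oxygen had an SD of 0.30, beside 0.25 for all measured genes. The SD of all genes was 0.37 under a mean log2 signal of 7 and 0.27 from 7 to 8. It was 0.21 from 8 to 9, 0.18 from 9 to 10 and 0.13 at 10 and above. The list has genes in each of these ranges. Of 19 genes 17 were measured, 9 higher and 8 lower, median 0.03, with 3 at least 1.2-fold higher and 2 lower, beside 21.9% of all measured genes. Arrdc4, an arrestin-like gene induced by glucose through the ChREBP and MondoA factors, read 51.4 in the knockout against 90.2 in the wild type by 1 dim probe set. This was 1.75-fold lower (-0.81), with an array error of 0.34. Txnip, which the same factors induce, read 242 against 204.5 (0.24, array error 0.27) by its brightest probe set, and another was at -0.03. The prolyl hydroxylase genes Egln2 and Egln3, whose enzymes mark hypoxia-inducible factors for destruction, differed by -0.40 and 0.41, Egln3 with probe sets of opposite sign. Epas1 and Hif1a, the genes of those factors, were 1.25-fold and 1.23-fold higher by their brightest probe sets, Hif1a with another at -0.21. Txnip, Epas1 and Hif1a were named after their values were seen.

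The Crtc1 signal itself was 7.42-fold and 6.64-fold lower in the knockout pool by its measured probe sets. Array medians were 54.4 (knockout) and 52.2 (wild type). Of 14 hypothalamus markers 9 were measured, 3 at least 1.2-fold higher and 1 at least 1.2-fold lower. Of all measured genes 11.9% were that much higher and 9.97% lower. The higher ones were Avp at 1690.4 against 1149 (0.56), Oxt at 969 against 695 (0.48) and Hdc at 67.2 against 52.7 (0.35). The lower one, by its brightest probe set, was Pomc at 136 against 174 (-0.35). The other measured probe set of Pomc was at 0.64, and the mean of both at 0.14. For Hdc the other was at -0.29 and the mean at 0.03, so neither gene had a settled direction. The other measured markers included Pmch at 3341 against 3498 and Hcrt at 817 against 883, while Agrp, Sim1, Nkx2-1, Hmx2 and Hmx3 had no measured probe set. Choroid plexus markers were lower in 7 of 8 (median -0.34, summed signals 8610 against 9707) and microglia markers higher in 6 of 8 (0.23, 4080.4 against 3538). Of all 11312 measured genes 5754 were higher and 5545 lower. Of red blood cell genes 1 of 5 was measured, at 0.09. The part of these tissues in the values of the set was not tested.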

How the data were processed

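The authors deposited 1 linear signal intensity per probe set and array. The sources used here do not give how probes were summarised or scaled. The mean without the lowest and highest 2% was 200.0 on both arrays, which scaling each array to a common mean would give. Whether other steps were applied is not known. RNA was pooled before hybridisation, per the series design text.

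Here signals under an array's 30th percentile were raised to it before taking log2. Gene names came from GEO's annotation of the platform, brought up to date by Entrez ID with RefSeq (GRCm38.p6). Of 45037 probe sets outside 64 controls, 34945 had 1 gene, 932 several and 9160 none in the table used. Measured probe sets were those at or above the median of mean log2 signals (22519). A gene took its brightest one. The array error pooled genes with at least 2 measured probe sets, in bins of the mean log2 signal averaged over those probe sets. It was then assigned to a gene by the mean log2 signal of its brightest probe set, and to a probe set by its own. Scripts ran in Python 3.11.15 with numpy 2.4.6, pandas 2.3.3 and statsmodels 0.14.6 and were tested on simulated data. The number of arrays limits the precision.

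Genes described are all members of the set, and from each further list of glucose genes and regulators, and from the hypothalamus markers, the 3 measured genes of largest difference, with exceptions named as such; Pmch, Hcrt and Pomc are named besides. The other marker lists are given by counts and medians. The members, lists and rules were chosen with earlier results of these data known. Alternatives were 3 scalings (median centring, quantile, loess with a span of 0.3), other floors (10th or 50th percentile), adding 16 to each signal in place of a floor, other filters (none, or the 70th percentile), averaging a gene's probe sets, and using no probe set with an _s_at, _x_at or _a_at suffix.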

Additional observations from a re-analysis of the deposited data

How the results depend on the processing

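Under the 10 alternatives, 320 values of single genes moved by less than their array error and 4 did not, those of Slc2a3 and Aco1 with averaged probe sets or without shared-sequence suffixes. Many of the 320 could not move. The other floors and filters left the value of each of the 34 genes they kept as it was. Averaging cannot change the 13 genes with 1 measured probe set. In all, 20 of the 34 genes kept one sign in every setting that measured them, 11 lower and 9 higher. Aco1 turned from 0.423 to -0.0736 when the probe sets with such suffixes were left out. That setting left 19 genes and counts of 0 higher and 1 lower at 1.2-fold, a median of -0.17 for the early steps of glycolysis (main value -0.07) and of -0.11 for transporters (main value 0.04). The median of the 34 genes was -0.0588 with median centring, which put that of all measured genes at -0.0555. At 1.2-fold, quantile normalization gave 1 lower gene, no filter gave 2 higher (Slc16a7 was added) and the mean of probe sets gave 0 higher and 3 lower. No paired analysis was possible because each genotype is 1 pooled array. Dim probe sets are limited by their signal, with an array error of 0.34 below a mean log2 signal of 7.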
